A study of Mus musculus with 6 samples.

Results

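The genes described here are 10 markers of adipocyte progenitors, the fibroblast-like cells of fat tissue from which new adipocytes form: Pdgfra, Pdgfrb, Ly6a, Cd34, Dpp4, Pi16, Dlk1, Clec11a, Gdf10 and F3. They were chosen by symbol, each matched 1 row of the 54532 genes in the deposited count table, and all 10 passed the low-count filter. RNA was sequenced from inguinal white adipose tissue, a subcutaneous fat depot, taken from aged mice that had spent 7 days in the cold. The vehicle group had 3 libraries and the estrogen group 3, and the series asks what estrogen does to beige adipocytes of old animals. Both groups were old and cold-exposed, so neither a young nor a warm control enters the comparison. Strain, sex, exact age, and the dose and route of estrogen are not stated in the labels. Nor do they say whether each library came from its own animal, and p-values therefore reflect the variation among these 6 libraries, part of which may be technical.

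Adipocyte progenitors carry the platelet-derived growth factor receptor PDGFRA and, like many mesenchymal stem cells, the surface proteins SCA-1 (the product of Ly6a) and CD34. In subcutaneous fat they form a loose hierarchy. Cells with DPP4 and PI16 lie in the connective tissue that surrounds the fat and act as a reservoir, cells with ICAM1 are committed to the adipocyte lineage, and cells with CD142 (tissue factor, the product of F3) together with CLEC11A and GDF10 form a further population that has been described as restraining adipogenesis in some settings. DLK1, also called PREF-1, is a membrane protein of preadipocytes that inhibits their differentiation and is lost as they mature. Several markers are shared with other cells: PDGFRB with pericytes, CD34 and SCA-1 with endothelium, and DPP4 and SCA-1 with lymphocytes.

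Total counts ran from 16046601 to 20736771 per library, and 3 counts, taken as the detection floor, equalled 0.130 to 0.209 CPM (counts divided by a TMM-scaled library size, the unit of all levels below unless stated). Adipocyte genes were abundant as the tissue label implies, the 10 listed ones summing to between 15079 and 23696 CPM with vehicle and between 21618 and 39658 CPM with estrogen. Estrogen replicate 1 stood apart in skeletal muscle genes, whose 6 listed members summed to 6733 CPM there and to between 2.03 and 63.4 CPM elsewhere. B cell genes summed to 151 CPM in estrogen replicate 1 and 99.0 CPM in estrogen replicate 3, against 3.96 to 6.64 CPM in the other 4 libraries. T cell genes summed to 79.7 CPM in estrogen replicate 1 and to between 4.01 and 14.3 CPM elsewhere. Of the 7 mammary epithelial genes, Krt5, Krt14 and Krt17 had no count in any library.

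With estrogen, 9 of the 10 progenitor markers lay lower and 1, F3, lay higher, but none passed the test (edgeR quasi-likelihood, Benjamini-Hochberg adjusted p from 0.207 to 0.270). Over all 15591 tested genes the same test called 0 (0%). The median log2 fold change of the 10 was -0.98, against 0.0025 over all tested genes, of which 49.7% were below 0. At an unadjusted p under 0.05 there were 7 markers lower and 0 higher, where 10.9% of all tested genes were lower and 9.49% higher. All 3 estrogen libraries lay under all 3 vehicle libraries for 7 markers (Pdgfra, Ly6a, Cd34, Dpp4, Pi16, Dlk1 and Clec11a), as they did for 14.7% of tested genes, and above them for 0 markers, against 12.8% of tested genes. DESeq2, an alternative count test, called Ly6a (adjusted p = 0.00628) and Dlk1 (adjusted p = 0.0123) lower and no other marker, against 2.99% of genes called lower and 2.13% called higher. In whole tissue, fewer cells of a type and less RNA per cell cannot be told apart.

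**Figure D1:**
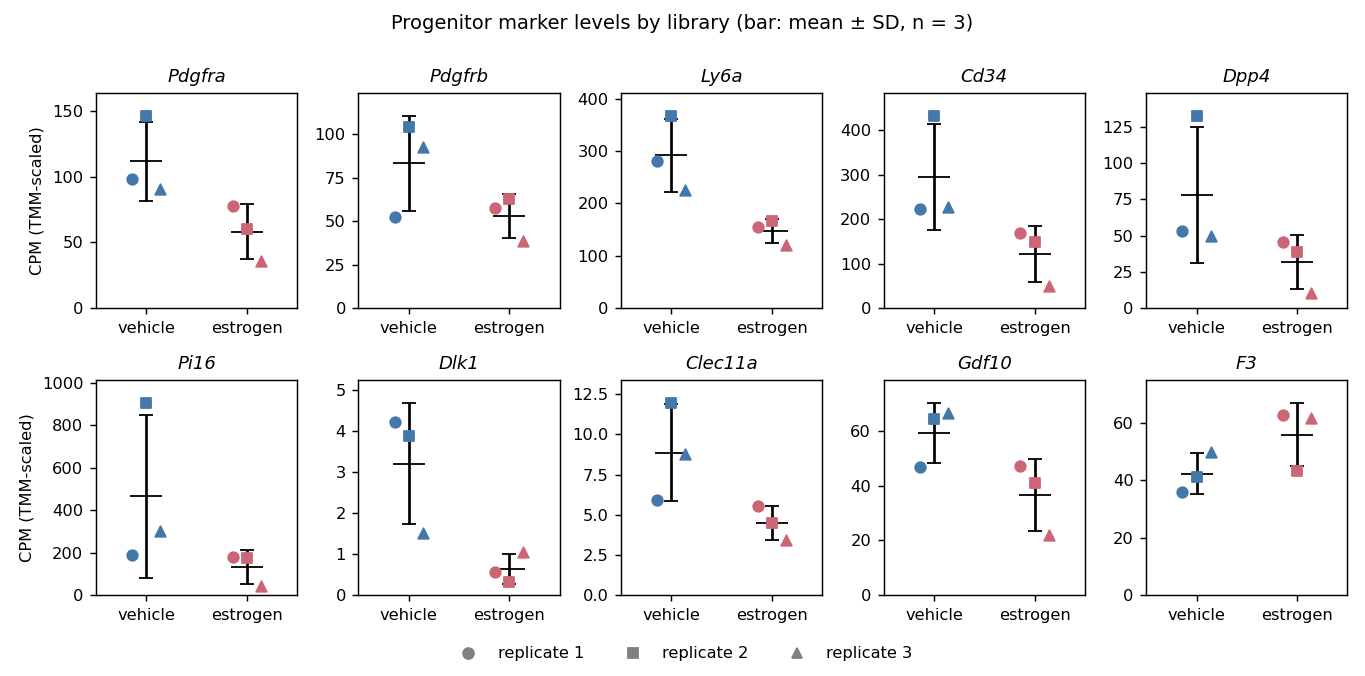
Level of each progenitor marker in each library, as TMM-scaled CPM on a linear axis starting at 0, with points for libraries (marker shape gives the replicate) and black bars for the mean ± SD of 3 libraries. Pi16 in vehicle replicate 2, at 904 CPM, lies far above the other 5 libraries, and F3 is the 1 gene with a higher estrogen mean.

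Pdgfra, the receptor that marks the progenitor population as a whole, was at 98.4, 146 and 90.5 CPM with vehicle and 77.8, 60.2 and 35.9 CPM with estrogen (replicates 1, 2 and 3 in that order, here and below). The groups did not overlap, although vehicle replicate 3 and estrogen replicate 1 lay close together. The log2 fold change was -0.94 ± 0.31 (SE; 1.92-fold lower; 95% interval -1.67 to -0.22), and edgeR's adjusted p was 0.207. Pdgfra (ENSMUSG00000029231) lies on chromosome 5, 75152292 to 75198215, on the plus strand of mm10. Pdgfrb, the sister receptor, which pericytes also carry, was at 52.6, 104 and 92.8 CPM with vehicle and 57.6, 62.8 and 38.8 CPM with estrogen. Here the groups overlapped, because vehicle replicate 1 was as low as the estrogen libraries, and the log2 fold change was -0.65 ± 0.29 (adjusted p = 0.254 by edgeR). The 8 mural cell genes, which mark pericytes and smooth muscle, had a median log2 fold change of 0.17 with 5 positive and 1, Mcam, lower at an unadjusted p under 0.05 (-0.53 ± 0.19, edgeR adjusted p = 0.212), and summed to between 624 and 858 CPM with vehicle and 652 and 674 CPM with estrogen.

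Among the ligands of these receptors, none passed the adjusted test. Pdgfc lay lower, at a log2 fold change of -0.79 ± 0.24 with groups that did not overlap, and Pdgfb lay higher, at 0.51 ± 0.21. Pdgfd was at -0.66 ± 0.32 and Pdgfa at -0.25 ± 0.30. At an unadjusted p under 0.05, 1 of the 4 was lower and 1 higher.

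Ly6a, which encodes the stem cell antigen SCA-1, was at 282, 366 and 227 CPM with vehicle and 154, 166 and 121 CPM with estrogen. It had the smallest p and the narrowest 95% interval, relative to its fold change, of the 10 markers (log2 fold change -0.99 ± 0.21, interval -1.49 to -0.48, 1.98-fold lower, edgeR adjusted p = 0.207). The lowest vehicle library was above the highest estrogen library by a wider margin than for Pdgfra. Ly6a (ENSMUSG00000075602, chromosome 15, 74994877 to 74998031, minus strand) belongs to a multigene family, and 2.38% of the 75-base windows of its longest transcript also occur in Ly6c1 or Ly6i. Its count is therefore uncertain, by an amount that this share does not bound. Cd34, which encodes a sialomucin of progenitors and endothelium, was at 223, 431 and 227 CPM with vehicle and 168, 148 and 50.4 CPM with estrogen. Its groups were set apart too, with vehicle replicate 2 and estrogen replicate 3 as the extremes (log2 fold change -1.26 ± 0.47, edgeR adjusted p = 0.215). Endothelial cells also carry both antigens. Of 8 genes that mark endothelium 7 were positive, 2 of them at an unadjusted p under 0.05 and none past the adjusted test. Tek was negative, at -0.38 ± 0.22. The median log2 fold change of the 8 was 0.31, and their summed levels were 489 to 726 CPM with vehicle and 619 to 819 CPM with estrogen. The part of endothelium in the Ly6a and Cd34 differences was not tested. In estrogen replicate 1, the library with the most T cell RNA, Ly6a lay between the other 2 estrogen libraries. Dpp4, also shared with lymphocytes, was at its highest estrogen level in that library, at 45.9 CPM. The part of lymphocytes in either level was not tested.

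Pi16, a peptidase inhibitor that marks the earliest progenitors, had the widest spread of the set. It was at 188, 904 and 304 CPM with vehicle and 181, 175 and 42.0 CPM with estrogen, so that vehicle replicate 1 and estrogen replicate 1 nearly met. The highest vehicle library was 4.81 times the lowest, where the median of that ratio over all tested genes was 1.31, and within the estrogen group the ratio was 4.30 against a median of 1.41. The log2 fold change was -1.81 ± 0.72 with a 95% interval from -3.50 to -0.11 (edgeR adjusted p = 0.227). Without vehicle replicate 2 it was -0.89. Dpp4, a surface peptidase of the same cells, was at 52.9, 132 and 49.6 CPM with vehicle and 45.9, 39.0 and 10.3 CPM with estrogen. The groups were separate by a narrow gap, and the same 2 libraries as for Cd34 and Pi16 were the extremes (log2 fold change -1.30 ± 0.59, edgeR adjusted p = 0.262). Without vehicle replicate 2 the log2 fold change of Dpp4 was -0.69, and without both that library and estrogen replicate 3 it was -0.28, with Pi16 at -0.47.

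The 8 other genes listed as companions of Dpp4 and Pi16 all lay lower, with a median log2 fold change of -1.30. At an unadjusted p under 0.05 there were 6 of 8, and 7 of 8 had groups that did not overlap, while none passed the adjusted test. Il13ra1, an interleukin-13 receptor chain, had -1.30 ± 0.33, Ly6c1 had -0.69 ± 0.19, Anxa3, an annexin, had -1.30 ± 0.45 and Creb5, a transcription factor, had -1.20 ± 0.45. DESeq2 called 3 of the 8 lower. Genes of committed preadipocytes had a median of -0.23 with 6 of 8 negative. Of these, Col15a1, a collagen, had a log2 fold change of -0.63 ± 0.26 and was the 1 member at an unadjusted p under 0.05, while Ebf2 was at -0.26 ± 0.25, Col4a1 at -0.25 ± 0.26 and Icam1 at -0.21 ± 0.24. Whether the companion lists differ from each other was not tested.

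Dlk1 had the largest fold change of the 10 and the lowest level. Its counts were 83, 77 and 35 with vehicle and 11, 5 and 15 with estrogen, which equals 4.22, 3.90 and 1.52 CPM against 0.570, 0.327 and 1.04 CPM. The groups did not overlap, but the lowest vehicle and the highest estrogen library, both replicate 3, lay close together. The log2 fold change was -2.31 ± 0.56 (4.95-fold lower, 95% interval -3.63 to -0.98, edgeR adjusted p = 0.207), lower than that of all but 0.410% of tested genes. Dlk1 (ENSMUSG00000040856, chromosome 12, 109452823 to 109463336, plus strand) did not follow the library order of most other lower markers: vehicle replicate 1 and not 2 was its highest library, and estrogen replicate 2 and not 3 its lowest.

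Dlk1 lies in an imprinted domain, where the copy from the father expresses Dlk1 and Rtl1 and the copy from the mother expresses the noncoding RNAs Meg3, Rian and Mirg. The 4 tested neighbours lay lower as well, with a median log2 fold change of -2.49, 3 of them at an unadjusted p under 0.05 and with separate groups, and none past the adjusted test. Meg3 was at 95.7, 265 and 66.9 CPM with vehicle and 28.9, 52.2 and 9.89 CPM with estrogen, and its log2 fold change was -2.23 ± 0.70. Rian had -2.81 ± 0.87, Mirg -2.75 ± 0.66 and Rtl1 -1.78 ± 1.07. Unlike Dlk1, Meg3 was highest in vehicle replicate 2 and lowest in estrogen replicate 3. Dio3, a further gene of the domain, had 9, 12 and 14 counts with vehicle and 5, 6 and 0 with estrogen and was not tested. Of 11 imprinted growth genes listed outside the domain, 10 were found and 9 tested. All 9 were negative, with a median of -0.91 and 5 at an unadjusted p under 0.05. Igf2 was not tested, with 2, 4 and 5 counts with vehicle and 7, 3 and 2 with estrogen. Plagl1, a zinc finger regulator of imprinted genes, had -0.91 ± 0.20, Ndn -0.71 ± 0.20, Grb10 -0.91 ± 0.26 and Peg3 -1.16 ± 0.45.

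Clec11a, which encodes the secreted lectin osteolectin, was at 5.89, 11.9 and 8.76 CPM with vehicle and 5.55, 4.52 and 3.41 CPM with estrogen. The groups were separate but vehicle replicate 1 and estrogen replicate 1 nearly met (log2 fold change -0.98 ± 0.32, edgeR adjusted p = 0.207). Gdf10, a secreted factor of the TGF-beta superfamily, was at 46.7, 64.5 and 66.6 CPM with vehicle and 47.3, 41.0 and 21.9 CPM with estrogen. Vehicle replicate 1 fell inside the estrogen range, and the log2 fold change was -0.69 ± 0.29 (edgeR adjusted p = 0.239). Of 8 genes for receptors of that superfamily and for Bmp3, the paralog of Gdf10, all were negative with a median of -0.23, and 0 were at an unadjusted p under 0.05. Tgfbr2 had -0.68 ± 0.32, Tgfbr1 -0.29 ± 0.14, Acvr1b -0.53 ± 0.26 and Acvr2a -0.17 ± 0.17.

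F3, which encodes tissue factor, the starter of blood coagulation and the CD142 antigen, was at 35.8, 41.1 and 49.9 CPM with vehicle and 62.9, 43.3 and 61.6 CPM with estrogen. Estrogen replicate 2 fell inside the vehicle range, while the other 2 estrogen libraries were above it. The log2 fold change was 0.40 ± 0.19 with a 95% interval from -0.04 to 0.85, and it did not pass the test (edgeR adjusted p = 0.270). Its unadjusted edgeR p of 0.0692 became 0.037 without vehicle replicate 3 and 0.0143 without estrogen replicate 2 (edgeR adjusted p = 0.297 and 0.202). It rose to 0.199 without vehicle replicate 1 and 0.146 without vehicle replicate 2. Without estrogen replicate 1 it rose to 0.209, and without estrogen replicate 3 to 0.159. Scaled by library totals alone, the log2 fold change of F3 was 0.23 (edgeR unadjusted p = 0.313). The 6 companions of F3, Clec11a and Gdf10 were mixed, with a median of -0.48, 4 negative and 1 at an unadjusted p under 0.05. Vit was at -0.82 ± 0.32, Meox1 at -0.59 ± 0.34, Fmo2, a flavin monooxygenase, at 0.40 ± 0.23 and Meox2 at -0.38 ± 0.23. Other genes of the tissue factor pathway lay on the opposite side to F3: 8 of 8 were negative with a median of -0.97, and 5 were at an unadjusted p under 0.05. Tfpi2, an inhibitor related to the tissue factor pathway inhibitor, had -1.76 ± 0.53, F13a1, a clotting factor subunit also made by macrophages, had -0.97 ± 0.36, Thbd had -0.97 ± 0.37 and F2rl1 had -1.58 ± 0.65.

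**Figure D2:**
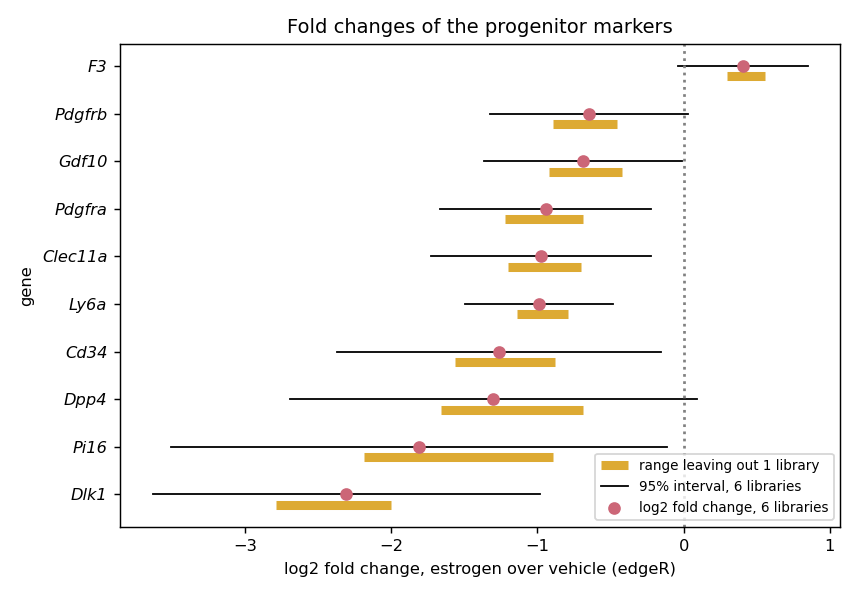
Log2 fold change of each marker, estrogen over vehicle, from edgeR (points), with its 95% interval over 6 libraries (black lines) and the range of values when 1 library at a time is left out (yellow bars). The yellow bars stay on 1 side of 0 for all 10 genes. The 95% intervals of Pdgfrb (-1.33 to 0.03), Dpp4 (-2.69 to 0.09) and F3 (-0.04 to 0.85) include 0.

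On mm10, Cd34 (ENSMUSG00000016494) lies on chromosome 1 from 194938819 to 194961279 and Dpp4 (ENSMUSG00000035000) on chromosome 2 from 62330073 to 62412231. Pi16 (ENSMUSG00000024011) spans 29318877 to 29329413 on chromosome 17 by the deposited positions, and 29317680 to 29330593 in GENCODE M21. In the GENCODE model, 3.85% of the 75-base windows of its longest transcript also occur in AC162182.1, an overlapping gene on the other strand. Clec11a (ENSMUSG00000004473) lies on chromosome 7 from 44302687 to 44306902, Gdf10 (ENSMUSG00000021943) on chromosome 14 from 33923587 to 33937983 and F3 (ENSMUSG00000028128) on chromosome 3 from 121723537 to 121735048. Apart from Ly6a and Pi16, no marker shared a 75-base window with another gene.

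Compared per length, as CPM divided by the gene model's length in kilobases (RPKM), Ly6a was the most abundant marker with vehicle at 242 ± 58.5 RPKM (SD, n = 3). Pi16 followed at 117 ± 96.3 and Cd34 at 40.3 ± 16.3 RPKM, and neighbours among these 3 overlapped between libraries. Below a gap came F3 (16.7 ± 2.81), Pdgfrb (15.2 ± 4.96), Dpp4 (12.4 ± 7.42), Gdf10 (11.4 ± 2.09) and Pdgfra (11.1 ± 2.99 RPKM), whose ranges overlapped from each to the next. Clec11a at 2.98 ± 1.02 and Dlk1 at 0.568 ± 0.261 RPKM were each below all libraries of the gene before them. With estrogen the order was the same at the top and bottom, with Ly6a at 122 ± 19.3, Pi16 at 33.3 ± 19.7 and Dlk1 at 0.114 ± 0.0645 RPKM. F3, at 22.1 ± 4.33 RPKM, then stood above Cd34, at 16.8 ± 8.64, although their libraries overlapped.

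Most markers shared their highest and their lowest library. Vehicle replicate 2 was the highest library for 7 of 10 markers, as it was for 22.3% of all tested genes, and estrogen replicate 3 the lowest for 8 of 10, as it was for 29.4%. Relative to each gene's own mean of log2 CPM, the median of the 10 markers was 0.17, 0.93 and 0.30 with vehicle and -0.10, -0.22 and -0.94 with estrogen. The extremes thus belonged to 1 library of each group, with the other 4 between them in group order. Without vehicle replicate 2, 2 markers (Ly6a and Dlk1) were at an unadjusted p under 0.05, as were 9.05% of all genes in that fit, in either direction. The fibroblast and matrix genes were 12 of 12 negative with a median of -1.72. Their sum had its extremes in the same libraries, at 50996 CPM in vehicle replicate 2 and 2209 CPM in estrogen replicate 3. Lum, a matrix proteoglycan, had a log2 fold change of -1.36 ± 0.34, Vim, the mesenchymal filament protein, -0.79 ± 0.20, Mfap5 -1.95 ± 0.61 and Dpt -1.04 ± 0.34. Unlike the sum, Vim and Cd44 were highest in vehicle replicate 1. The sum of the adipocyte genes showed the reverse extremes, lowest in vehicle replicate 2 at 15079 CPM and highest in estrogen replicate 3 at 39658 CPM. Cfd made up much of this sum, with 18026 CPM in estrogen replicate 3. Lep went the other way, at 214 CPM in vehicle replicate 2 and 28.6 CPM in estrogen replicate 3, and Plin4 and Acvr1c were highest in vehicle replicate 3. The part of adipocyte genes in the marker differences was not tested.

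**Figure D3:**
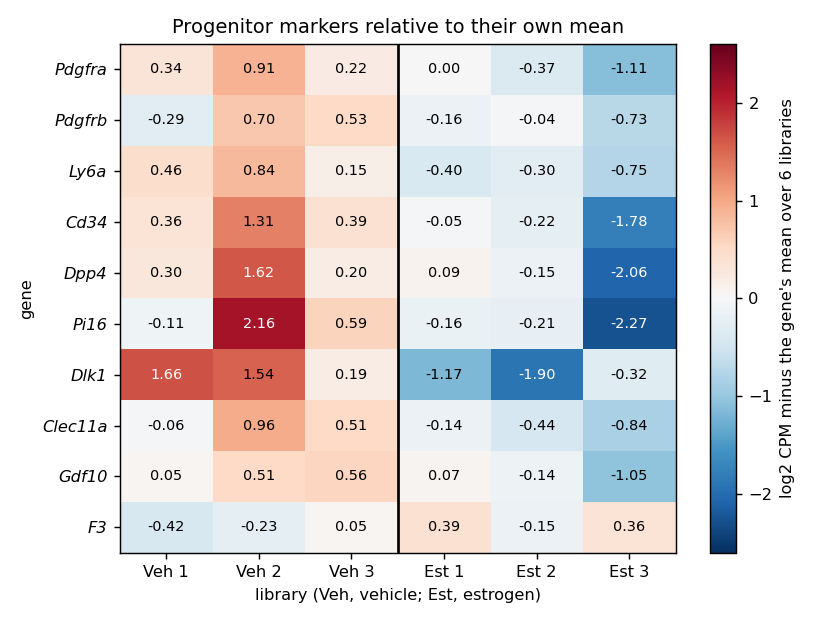
Log2 CPM of each marker in each library minus the gene's mean over the 6 libraries, with red above and blue below the mean and the vertical line between vehicle (Veh) and estrogen (Est). Pi16 spans from 2.16 in vehicle replicate 2 to -2.27 in estrogen replicate 3, and Dlk1 and F3 depart from the pattern of the other rows.

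To ask whether any marker moved more or less than Pdgfra, its log2 ratio to Pdgfra was taken in each library, which does not depend on library scaling. F3 was the 1 marker of 9 whose ratio did not overlap between groups. Its log2 ratio was -1.46, -1.83 and -0.86 with vehicle and -0.31, -0.47 and 0.78 with estrogen, a difference of 1.38 (exact permutation test, two-sided, p = 0.1, the smallest that 3 against 3 allows, adjusted p = 0.6 over 9 ratios). Pdgfra itself had separate groups and a log2 fold change of -0.94, so a gene that did not change would also gain on it. The share of all tested genes whose ratio to Pdgfra separates the groups was not counted. Ly6a and Clec11a kept nearly the same ratio on average, with differences of 0.01 and 0.04. The Dlk1 ratio differed by -1.28 (vehicle -5.21 ± 0.67, estrogen -6.49 ± 1.25, SD, n = 3), but estrogen replicate 3, at -5.06, was above 2 of the 3 vehicle libraries (exact permutation p = 0.3). Its size depends on the constant added to these low counts, as it was -0.83 with 5 counts added in place of 0.5. Pi16, Dpp4 and Cd34 had differences of -0.78, -0.43 and -0.39, and Pdgfrb and Gdf10 of 0.36 and 0.24, all with overlapping groups and exact permutation p of at least 0.2.

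**Figure D4:**
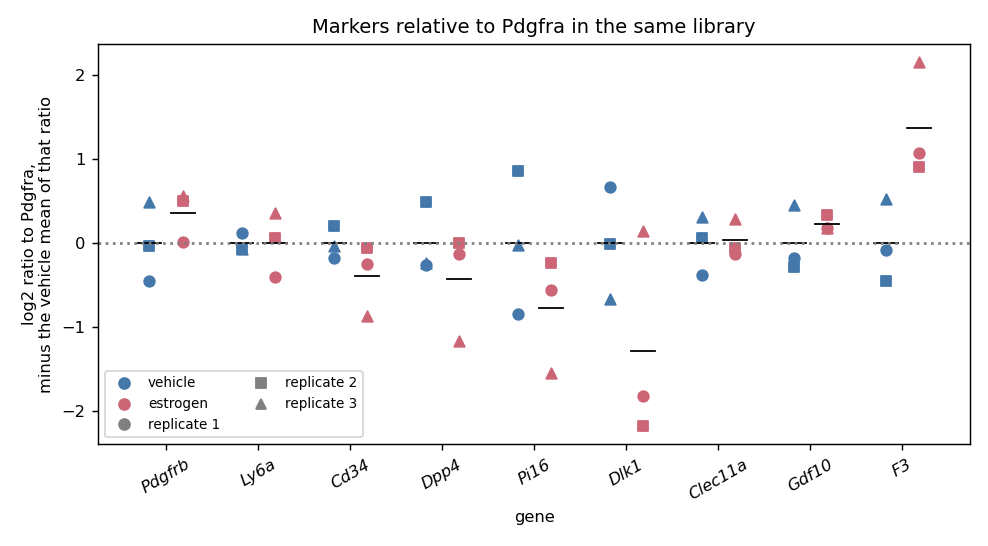
Log2 ratio of each marker to Pdgfra in the same library, shifted so that the vehicle mean is 0, with blue for vehicle, red for estrogen, marker shape for the replicate and black dashes for group means. The 3 estrogen points of F3 lie above its 3 vehicle points, and in every other column the groups overlap.

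By the mean absolute difference between centred log2 CPM profiles over the 6 libraries, the markers nearest to each other were Clec11a and Pdgfrb (0.17 log2 units), Dpp4 and Cd34 (0.17) and Pdgfra and Ly6a (0.18). Among 11870 genes compared, the profile nearest to Pdgfra was that of Prrx1, a homeobox factor of mesenchymal cells (0.06), followed by Sgpp1 and Cxcl16. Nearest to Dpp4 was Sema3c (0.08), followed by Aldh1a3 and Lrrn4cl, and nearest to Pi16 was Fndc1 (0.09), followed by Duox1 and Duoxa1. Dlk1 had no such close neighbour, as the nearest, Alox15, was at 0.44 and its nearest fellow marker, Ly6a, at 0.79. F3 was nearest to Ets1 (0.04), and its nearest fellow marker, Pdgfrb, was at 0.55. These distances describe 6 libraries that share their groups and their extremes.

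**Figure D5:**
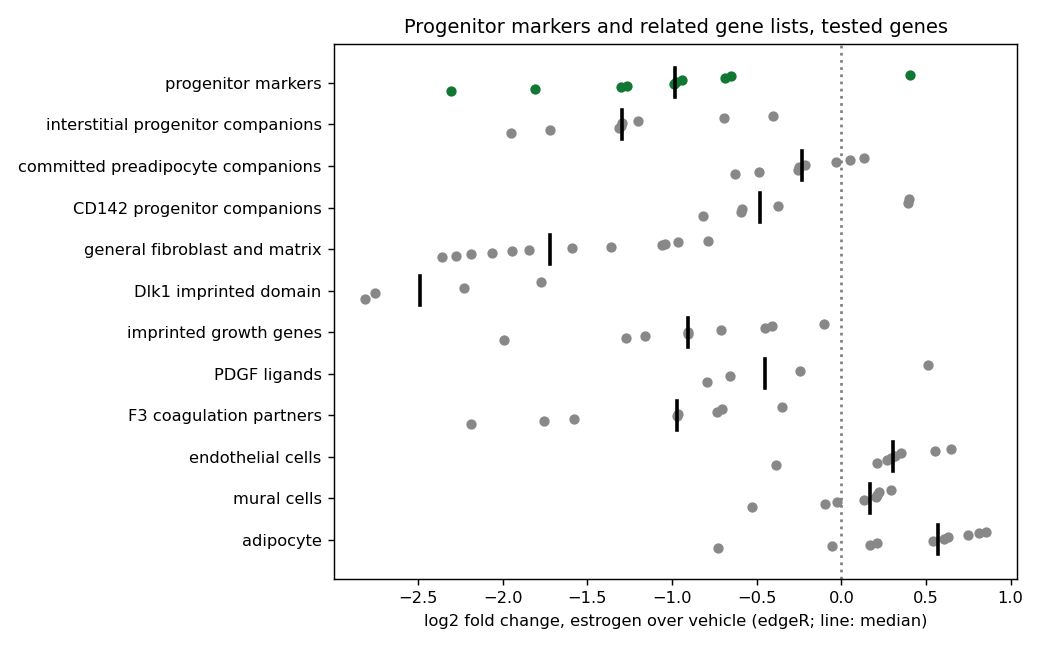
Log2 fold changes (edgeR, estrogen over vehicle) of the tested genes of the progenitor, matrix, imprinted, PDGF, coagulation, endothelial, mural and adipocyte lists, with the 10 progenitor markers in green, the other lists in grey and a black line at each list's median. The medians of the lists drawn (those of immune, muscle, mesothelial, mammary and Schwann cells, BMP receptors and the cell cycle are not) run from -2.49 for the Dlk1 imprinted domain to 0.57 for adipocyte genes, with the 10 markers at -0.98.

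The DNA before the start of transcription is shown for 4 markers that span the range of responses: Dlk1, with the largest fold change, Pdgfra, the marker of the whole population, Dpp4, of the early progenitors, and F3, the 1 marker that lay higher. Each is the 250 bases upstream of the RefSeq start (build GRCm38.p6, the same as mm10), 5′ to 3′ on the strand of the gene, with matches to the motifs searched in capitals. RefSeq windows were matched for 8 of the 10 markers, and Ly6a and Pdgfrb had no entry.
Dlk1: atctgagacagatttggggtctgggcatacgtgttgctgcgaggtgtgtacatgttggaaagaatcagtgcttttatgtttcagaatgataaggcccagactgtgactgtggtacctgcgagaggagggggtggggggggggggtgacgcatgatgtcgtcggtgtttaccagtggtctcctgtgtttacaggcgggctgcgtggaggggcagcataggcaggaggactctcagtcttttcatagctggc
Pdgfra: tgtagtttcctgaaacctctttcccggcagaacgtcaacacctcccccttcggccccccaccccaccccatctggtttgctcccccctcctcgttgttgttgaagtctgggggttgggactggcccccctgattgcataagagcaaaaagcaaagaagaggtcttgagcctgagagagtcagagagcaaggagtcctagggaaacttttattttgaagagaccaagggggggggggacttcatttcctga
Dpp4: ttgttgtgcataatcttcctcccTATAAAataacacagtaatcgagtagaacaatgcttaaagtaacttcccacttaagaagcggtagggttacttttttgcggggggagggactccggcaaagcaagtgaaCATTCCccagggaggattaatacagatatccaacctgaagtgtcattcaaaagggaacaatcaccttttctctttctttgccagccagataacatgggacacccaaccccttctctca
F3: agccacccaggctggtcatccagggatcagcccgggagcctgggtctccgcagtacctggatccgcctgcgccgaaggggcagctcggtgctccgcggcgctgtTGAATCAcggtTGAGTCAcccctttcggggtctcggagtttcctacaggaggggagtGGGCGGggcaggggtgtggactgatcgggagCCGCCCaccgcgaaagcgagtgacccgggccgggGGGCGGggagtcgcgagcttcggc
The windows are chr12:109452573-109452822 for Dlk1, chr5:75152001-75152250 for Pdgfra, chr2:62412232-62412481 (minus strand) for Dpp4 and chr3:121723287-121723536 for F3.

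Each motif was searched on both strands, and its share over 32817 RefSeq windows of the same length is given beside the markers' count. The GC box, spelled GGGCGG, was in 3 of the 8 marker windows (Clec11a, Gdf10 and F3) and in 32.7% of all windows. The AP-1 site, written as TGANTCA, was in F3 alone of the 8 and in 6.75% of all windows. F3 held 3 GC boxes and 2 AP-1 matches, in a window with 70% G and C and 24 CpG dinucleotides, where the medians over all windows were 52.4% and 6. Dpp4 held 1 match to the TATA box letters TATAAA, found in 12.4% of windows but here far upstream of the start, and 1 to the TEAD site GGAATG, found in 12.6%. The CCAAT box was in Pi16 and Clec11a and in 33.8% of all windows, and the E-box CACGTG was in 0 of 8 and in 6.02%. The full estrogen response element, which is GGTCA followed after any 3 bases by its reverse complement, was in 0 of 8 windows and in 0.064% of all windows. Its half-site AGGTCA, which a full element can contain, was in 0 of 8 and in 14% of all windows. Dlk1 and Pdgfra held none of the 8 motifs, with 54.8% and 54.4% G and C and 8 and 4 CpG dinucleotides. Gdf10, which lay lower, had the window richest in G and C of the 8, at 78.8% with 35 CpG dinucleotides and 4 GC boxes. The windows of F3 and Gdf10 were both rich in G and C, and whether this content bears on the direction of a marker was not tested. A match or its absence describes these letters in this window only.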

How the data were processed

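RNA sequencing of 6 libraries was analysed from 1 table of raw counts per gene, which the authors deposited without normalization. Reads were aligned with HISAT2 and counted with featureCounts on mm10, per the submitters' processing notes. The labels state no versions, strand setting, annotation release or handling of reads with several map positions, so overlapping and antisense neighbours (as at Pdgfra, Cd34, Dpp4 and Pi16) could not be told apart. Groups and replicate numbers came from the sample titles. The column headers of the counts use other numbers: each group skips a number, and the libraries titled replicate 2 carry different numbers there. No 2 libraries of a group agreed within sampling noise (chi-square per degree of freedom from 45.9 to 98.1).

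Genes were filtered with filterByExpr (15591 kept), scaled by TMM and tested two-sided by edgeR's quasi-likelihood F test without a replicate block, and p-values were adjusted by Benjamini and Hochberg's method across the whole table, with 0.05 as threshold. Standard errors and 95% intervals came from the F statistic. Ratios to Pdgfra used counts plus 0.5 and an exact permutation test. The scripts were tested on simulated data. The software was edgeR 4.0.16, DESeq2 1.42.0 and limma 3.58.1 in R 4.3.3. Gene positions came from the deposited table, overlaps and shared 75-base windows from GENCODE M21, and promoter windows from RefSeq.

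The 10 members and the 21 lists were chosen with earlier results of these data known. The text names all members, up to 4 genes of smallest p per list, and the 3 nearest profiles among genes of mean log2 CPM 1 or more with symbols other than those of predicted models. For the matrix and adipocyte lists it also names genes that weigh on the sum or whose extreme libraries depart from those of the sum. Alternatives covered scaling, the filter, the tool, dispersions, a replicate block and leaving out libraries.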

Additional observations from a re-analysis of the deposited data

How the results depend on the processing

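No marker changed direction under any of the 15 alternatives to the edgeR fit, and no marker passed the adjusted threshold except 2 with DESeq2. The count lower at an unadjusted p under 0.05 ran from 2 to 8 when 1 library at a time was left out. It was 2 without vehicle replicate 2 (9.05% of all genes in that fit, either direction) and 8 without vehicle replicate 1 (16.7%). In the other fits with 1 library left out, 14.6% to 20.2% of all genes were at that p. The count was 4 without vehicle replicate 2 and estrogen replicate 3 (8.70% of all genes in that fit, either direction). There the median log2 fold change of the markers was -0.47. F3 was higher at that p in 2 of the fits with 1 library left out. These were the fits without vehicle replicate 3 (15.9% of all genes, either direction) and without estrogen replicate 2 (19.5%). Leaving out 1 library moved the median of the markers between -1.19 and -0.70. Scaling by library totals alone shifted the median of all genes to -0.17 and left every marker's direction as it was. The number of markers, of 9, whose ratio to Pdgfra separated the groups was 1 to 3 with 1 library left out. With the replicate number as a block, 3 of 9 ratios differed in the same direction within all 3 numbers, where the smallest exact p is 0.25. For neither count was the share over all tested genes taken, so neither is read as a result about the markers. The numbers, which are those of the titles, are not known to pair the samples. Deviations of libraries with the same title number correlated over genes at -0.13, 0.14 and 0.28. Vehicle replicates 1 and 2 were not nearest to their own number, and the headers number the libraries titled replicate 2 differently in the 2 groups. In the edgeR fit with the replicate block 0 markers were called (smallest adjusted p = 0.0778). In that fit 7 markers were at an unadjusted p under 0.05, as were 21.2% of all genes in either direction. Depth limits Dlk1 most, at 5 to 83 counts.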

Other observations

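Macrophage genes lay lower beside the progenitor markers, with 8 of 8 negative, a median log2 fold change of -1.003 and 6 at an unadjusted p under 0.05, and none past the adjusted test. Mrc1, the mannose receptor, had -1.25 ± 0.34 and C1qa, a complement component, -1.05 ± 0.36. Their summed level was 2343 to 3280 CPM with vehicle and 576 to 1747 CPM with estrogen. Cell cycle genes were 8 of 8 negative with a median of -0.95, of which Pcna, at -0.46 ± 0.15, was the 1 gene at an unadjusted p under 0.05. Their sum was highest in vehicle replicate 1, at 198 CPM, and not in vehicle replicate 2, where most progenitor markers were highest. Schwann cell genes had a median of 0.08 with 4 of 6 positive and 0 at an unadjusted p under 0.05. Of the 6 mesothelial genes 2 were tested, with Lrrn4 at 0.86 ± 0.38 and Krt19 at -1.08 ± 0.66, and the defining genes Msln, Upk1b, Upk3b and Wt1 had at most 5 counts in any library.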
